A study of Mus musculus with 26 samples.

Results

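AII amacrine cells were compared with J amacrine cells, a subset that the labels call glycinergic, on 4 of the 26 arrays of the series: 2 arrays of AII cells and 2 arrays of J cells. The groups were taken from the sample titles. The series sorted fluorescent neurons of 13 retinal subtypes from mouse retinas at postnatal day 6 by flow cytometry, with 2 arrays a subtype. The AII arrays came from GFP-positive cells of Swiss Webster x C57BL/6 mice and the J arrays from YFP-positive cells of C57BL/6 mice, so strain and reporter differed together with the cell type and cannot be told apart from it. Of the other amacrine types set beside them, starburst cells (Kusabira Orange-positive and Thy1-negative) and PaxCre cells (GFP-positive) came from C57BL/6 mice, and MP cells (CFP-positive and VC1.1-positive) from mixed C57BL/6 x CD1 mice. The labels name neither the transgene nor the driver that made the cells fluoresce, and no antibody gate is given for either group. Retinas of both groups were dissociated with papain and the RNA was amplified in 2 rounds before it was hybridised to Affymetrix arrays. The 2 arrays of a group came from different litters.

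Amacrine cells are the inhibitory interneurons of the inner retina, and most release either GABA or glycine. The AII cell is a narrow-field glycinergic cell of the rod pathway. It receives input from rod bipolar cells, passes it to ON cone bipolar cells through gap junctions, and inhibits OFF cone bipolar and ganglion cells with glycine. Glycinergic cells take up glycine with the transporter GlyT1, the product of Slc6a9, and load it into vesicles with the transporter VIAAT, the product of Slc32a1, which GABAergic cells use for GABA. PROX1 and DAB1 label AII cells in mammalian retina, whereas the factors EBF1 and EBF3 have been described in other glycinergic amacrine cells.

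Levels are given as log2(intensity + 16) after quantile normalization. The lowest deposited intensity corresponds to 4.09 on this scale, and the overall median of the probe sets was 6.14. Differences are AII minus J in log2 units, with their standard error (SE), and folds are taken from them, so the added 16 understates the change of dim genes. A gene was called when its adjusted p (limma over all genes tested, 26 arrays in 1 fit) was under 0.05 and its difference at least 1. Of 13951 genes tested, 2726 were called (19.5%), 1146 of them higher in AII cells (8.21%) and 1580 lower (11.3%), and the median difference over all genes was -0.03. The higher genes were 42% of those called after quantile normalization, but 35.6% on the columns as deposited (938 higher and 1697 lower) and 33.9% after a shift to the same median (914 and 1779). Each gene was represented by its brightest probe set. With the median over probe sets, 134 of the 166 named and called genes that could be compared kept their call, 52 of them with a difference over 1.5 times smaller. On the next brightest probe set, 128 named and called genes could be compared. Of these, 21 stayed within the replicate spread of the main difference and 18 turned direction. The 2 AII arrays lay closer to each other than the 2 J arrays: 221 genes (1.58%) differed by more than 1 between the AII arrays, against 1405 (10.1%) between the J arrays. Each SE and p-value rests on 1 spread per gene, shared by the 13 subtypes. They can thus understate the error of genes on which the J arrays differ widely. For Isl1 the replicate standard deviation was 1.275 in J and 0.526 in AII cells, beside an SE of 0.38. The 3′ to 5′ signal ratio of the actin control probe sets, which rises as RNA or amplified product shortens, was 13 and 10.7 on the AII arrays and 28.3 and 31.8 on the J arrays. That ratio for Gapdh was 9.07 and 5.25 on the AII arrays and 17.5 and 19 on the J arrays. Both ratios thus differed with the groups, and their part in the results was not tested.

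Both groups carried the glycine transporter gene of glycinergic cells. AII arrays had 11.81 and 11.68 for Slc6a9, and J arrays had 11.43 and 11.95, and the groups overlapped. AII and J cells ranked first and second of the 13 subtypes for Slc6a9, and the next level was 9.37 in MP amacrine cells. For Slc32a1 the AII arrays gave 10.54 and 10.42, and the J arrays 11.06 and 11.13, slightly lower in AII cells and without passing the test (-0.61, SE 0.25, adjusted p = 0.0718). Slc6a5 stood at 6.24 and 5.99 in AII cells and at 5.73 and 5.91 in J cells: this gene encodes the neuronal glycine transporter GlyT2, and it was not called on this, its brightest probe set over the 26 arrays. Its second probe set averaged 8.28 in AII cells and 5.43 in J cells, and with the median over both the difference of 1.57 was called (adjusted p = 2.07e-06 in limma). Tcf4, a transcription factor of the glycinergic list, stood at 12.00 and 12.10 in AII cells and 12.30 and 12.35 in J cells and was not called either.

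Gad1, a gene of GABAergic cells, was high in J cells and dim in AII cells. The level of Gad1 was 5.78 and 5.73 in AII cells, against 11.24 and 10.40 in J cells. Gad1 encodes the GABA-synthesising enzyme GAD67, and its J level stood nearer to the 12.39 of starburst and 12.30 of PaxCre cells than to the AII level, whereas MP amacrine cells were at 6.20. The difference was -5.07 (SE 0.47, adjusted p = 4.08e-07). A second, dimmer Gad1 probe set gave -0.63. Gad2 levels were 8.26 and 8.01 on the AII arrays, against 7.61 and 7.26 on the J arrays: this gene encodes GAD65, the other GABA-synthesising enzyme, and it went the other way by 0.70, under the threshold of 1. The second Gad2 probe set went the same way as Gad1, at 6.78 in AII cells and 7.63 in J cells (-0.85), and the median over both differed by -0.07. AII arrays had 6.49 and 6.77 for Abat, and J arrays had 8.16 and 9.40. Abat, the GABA transaminase that breaks GABA down, differed by -2.15 (SE 0.49, adjusted p = 0.00271), a call that was lost without J replicate 2 (difference -1.53). Aldh5a1, the next enzyme of GABA breakdown, was at 10.46 and 10.53 in AII cells and 10.03 and 10.16 in J cells. In all, 0 of 4 tested GABAergic genes were higher in AII cells and 2 were lower (0% higher and 50% lower, beside 8.21% and 11.3% over all genes). As these are bulk samples, fewer cells of a type and less RNA per cell cannot be told apart for any gene here.

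Most markers of the AII cell were higher in AII than in J cells, in a list written with earlier results of these data known. Of 8 AII markers tested, 7 were higher in AII cells, 0 were lower (87.5% higher and 0% lower, beside 8.21% and 11.3% over all genes), and Slc6a9 was not called. Their median difference was 2.14, against -0.03 over all genes. For Prox1 the AII arrays gave 11.76 and 11.63, and the J arrays 8.52 and 9.62. Prox1, a homeobox factor, differed by 2.62 (SE 0.43, adjusted p = 0.000172), and AII cells had the highest level of the 13 subtypes. Nfia stood at 11.25 and 11.78 in AII cells and at 6.92 and 6.38 in J cells. Nfia, a nuclear factor I gene, was 29.2-fold higher, a difference of 4.87 (SE 0.36, adjusted p = 2.15e-08), and 3 of its 5 other probe sets also differed by more than 1. The level of Gjd2 was 12.03 and 12.10 in AII cells, against 8.86 and 8.57 in J cells. Gjd2 encodes connexin 36, the gap junction protein through which AII cells couple to each other and to ON cone bipolar cells, and its difference was 3.35 (SE 0.18, adjusted p = 5.46e-10). J cells had the lowest Gjd2 level of the 13 subtypes. Calb2 levels were 10.43 and 10.68 on the AII arrays, against 6.25 and 7.04 on the J arrays. The difference in Calb2, the gene for the calcium buffer calretinin, was 3.91 (SE 0.46, adjusted p = 6.45e-06). Against the mean of starburst, MP and PaxCre cells, the AII value of Calb2 was 0.79, not called, and the J value -3.12. AII cells ranked 8 of the 13 subtypes for Calb2. Dab1, an adaptor of reelin signalling, was higher by 1.65 (SE 0.35, adjusted p = 0.00169). Its mean was 12.0 in AII and 10.4 in J cells, beside 8.4 in PaxCre, 8.3 in MP and 6.4 in starburst cells. The J level of Dab1 was itself 2.66 above the mean of those types. Scn1a, a sodium channel gene, was higher by 1.59 (SE 0.23, adjusted p = 4.71e-05), but only by 0.58 with the median over its probe sets. Its mean was 11.4 in AII, 9.8 in J and 10.6 in MP cells. Gria4, an AMPA receptor subunit gene, was at 11.62 and 11.58 in AII cells and 11.22 and 9.90 in J cells. Its call, on a difference of 1.04, was lost without AII replicate 2 (difference 1.06) and without J replicate 2 (difference 0.38).

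Promoters are shown for 3 of the 4 markers given for the groups, Hao2 and Prox1 for AII cells and Ebf1 for J cells, with every annotated start in the table. The 300-base windows span the start and are RefSeq sequences of build GRCm38.p6, printed 5′ to 3′ on the gene's strand. Capitals mark matches to CCCNNGGG, the core that EBF proteins bind, or to CANNTG, the E-box bound by basic helix-loop-helix proteins such as those of the Neurod genes. Both motifs read the same on either strand. Hao2 lies on the minus strand at chr3:98893181-98893480. Prox1 has starts on the minus strand at chr1:190170778-190171077 and chr1:190169466-190169765, and Ebf1 on the plus strand at chr11:44617850-44618149 and chr11:44619978-44620277.
Hao2: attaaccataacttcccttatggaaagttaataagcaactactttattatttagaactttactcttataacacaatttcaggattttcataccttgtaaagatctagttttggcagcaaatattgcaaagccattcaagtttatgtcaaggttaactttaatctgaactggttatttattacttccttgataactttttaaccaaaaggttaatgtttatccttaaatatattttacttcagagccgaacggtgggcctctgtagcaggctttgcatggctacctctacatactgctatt
Prox1, first start: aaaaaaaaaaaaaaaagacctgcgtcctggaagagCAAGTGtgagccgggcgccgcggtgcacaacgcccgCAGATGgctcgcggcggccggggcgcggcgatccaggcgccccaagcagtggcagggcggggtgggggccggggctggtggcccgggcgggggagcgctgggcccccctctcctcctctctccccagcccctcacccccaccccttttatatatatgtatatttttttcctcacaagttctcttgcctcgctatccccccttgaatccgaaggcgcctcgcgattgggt
Prox1, second start: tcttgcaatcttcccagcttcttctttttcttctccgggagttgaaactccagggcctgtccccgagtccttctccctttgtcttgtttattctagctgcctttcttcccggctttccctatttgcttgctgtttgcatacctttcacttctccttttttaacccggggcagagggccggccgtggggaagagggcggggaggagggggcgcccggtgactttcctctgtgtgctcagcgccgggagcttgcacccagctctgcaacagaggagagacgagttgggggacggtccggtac
Ebf1, first start: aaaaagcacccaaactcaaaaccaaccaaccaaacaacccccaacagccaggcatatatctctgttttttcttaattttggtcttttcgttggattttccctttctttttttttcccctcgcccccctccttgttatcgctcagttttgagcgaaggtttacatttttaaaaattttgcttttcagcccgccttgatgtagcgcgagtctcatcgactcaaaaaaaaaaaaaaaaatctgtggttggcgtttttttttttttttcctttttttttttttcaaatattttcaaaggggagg
Ebf1, second start: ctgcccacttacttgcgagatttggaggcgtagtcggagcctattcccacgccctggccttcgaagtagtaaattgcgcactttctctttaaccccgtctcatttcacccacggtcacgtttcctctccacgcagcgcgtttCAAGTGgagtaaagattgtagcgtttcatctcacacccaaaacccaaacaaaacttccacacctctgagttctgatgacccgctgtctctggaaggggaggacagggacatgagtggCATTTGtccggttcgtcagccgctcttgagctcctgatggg
The Hao2 window, the second Prox1 window and the first Ebf1 window held neither motif, and the first Prox1 window and the second Ebf1 window held 2 E-boxes each. Of 4 other named genes searched in the same manner, Nfia held 5 E-boxes, Gad1 held 1 E-box, and Ebf3 and Nr4a2 held 1 CCCNNGGG each. By symbol, 11222 of the 13951 genes tested matched at least 1 window, and a gene with several annotated starts has several. CCCNNGGG was found in 18.7% of 1224 windows of genes higher in AII cells, 19.5% of 1676 windows of genes lower in AII cells and 17.9% of 14330 windows of all genes tested. For CANNTG the shares were 62.9%, 65.2% and 65.3% in the same order. Both motifs were thus about as frequent beside the called genes as beside all genes, and a match is only a description of the letters.

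The 15 genes that stood highest in AII cells relative to J cells began with Cdh1 and Hao2. AII arrays had 10.65 and 10.55 for Hao2, and J arrays had 5.14 and 4.61. Hao2 encodes a peroxisomal 2-hydroxy acid oxidase, and in no other subtype did its mean level pass 5.02, that of Isl2 ganglion cells. It differed by 5.72 (SE 0.27, adjusted p = 1.91e-10). For Cdh1 the AII arrays gave 11.17 and 11.41, and the J arrays 4.70 and 4.50. Cdh1, which encodes E-cadherin, a homophilic adhesion protein better known from epithelia, differed by 6.69 (SE 0.37, adjusted p = 9.63e-10), and starburst cells came second with 10.85. Dync1i1 stood at 11.88 and 11.86 in AII cells and at 7.08 and 6.46 in J cells. This gene for a dynein intermediate chain, a part of the motor that carries cargo towards microtubule minus ends, differed by 5.10 (SE 0.33, adjusted p = 5.26e-09). The other genes of this group with a known neuronal or nuclear role were Pde8b, a cyclic AMP phosphodiesterase (difference 4.77), Ccsap, a centriole and spindle protein (4.71), Slc24a2, a sodium, calcium and potassium exchanger (4.63), Tead1, a TEA domain factor of the Hippo pathway (4.58), and Esrrg, an orphan nuclear receptor (4.56). A930017K11Rik, a gene without an established role, differed by 5.06. A dimmer probe set of Slc24a2 gave -0.90.

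**Figure D1:**
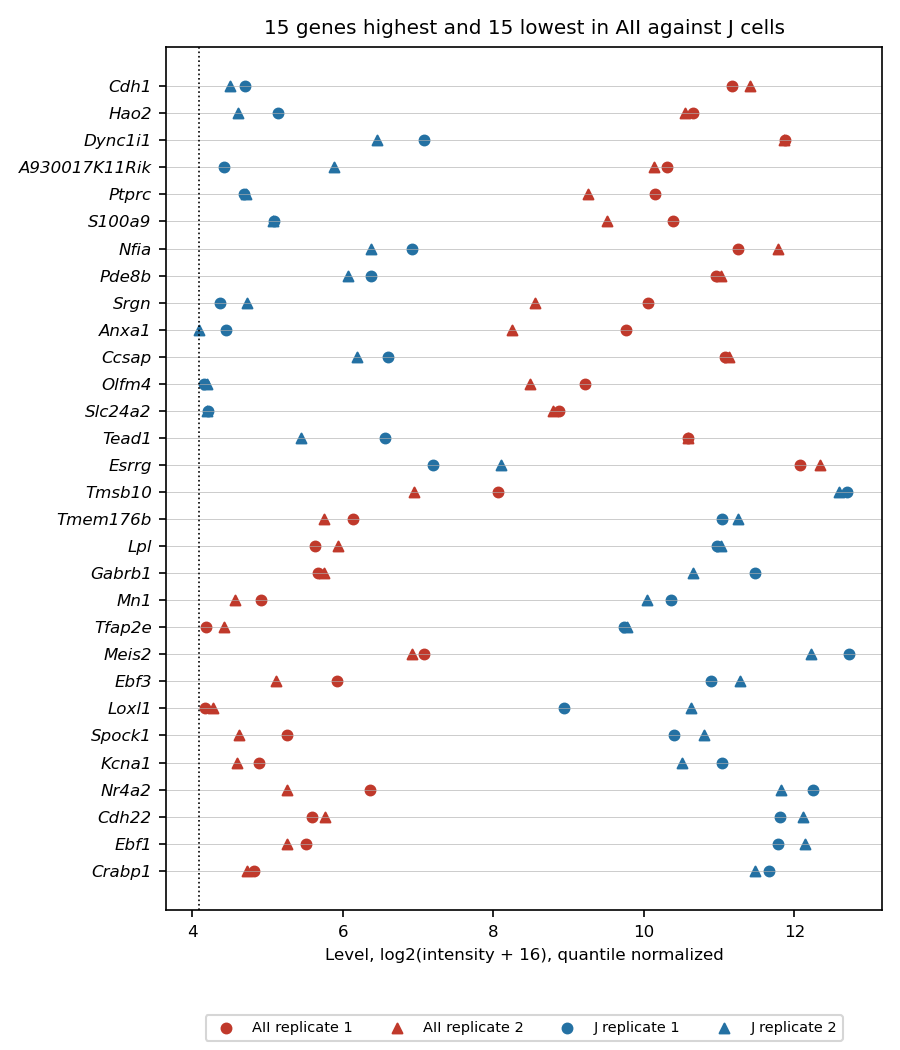
Levels, log2(intensity + 16), of the 15 genes highest and the 15 lowest in AII relative to J cells, one point per array. Red points are AII arrays, blue points are J arrays, circles and triangles are replicates 1 and 2, and the dotted line at 4.09 is the lowest possible level. AII points lie right of all J points for the upper 15 genes and left of them for the lower 15. Only genes without overlap were ranked.

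Another 5 of these 15 genes are known from leukocytes rather than neurons. The level of Ptprc was 10.15 and 9.26 in AII cells, against 4.69 and 4.71 in J cells. Ptprc encodes CD45, the phosphatase carried by nearly all leukocytes. S100a9 levels were 10.39 and 9.52 on the AII arrays, against 5.09 and 5.07 on the J arrays. S100a9 encodes a calcium-binding protein abundant in neutrophils, and its mean was at most 5.37 in the other subtypes. This did not hold for the others: J ganglion cells were at 9.60 for Ptprc, 8.77 for Srgn and 9.85 for Anxa1, beside AII means of 9.71, 9.30 and 9.0. AII arrays had 10.06 and 8.55 for Srgn, and J arrays had 4.37 and 4.73. Srgn encodes serglycin, a proteoglycan of secretory granules, and the remaining genes were Anxa1, which encodes annexin A1 (9.76 and 8.24 in AII cells, 4.45 and 4.09 in J cells), and Olfm4, which encodes a neutrophil granule protein (9.22 and 8.48 in AII cells, 4.16 and 4.20 in J cells). All 5 were higher on AII replicate 1 than on AII replicate 2. That the AII and J arrays did not overlap was a condition of the ranking. Of the 2726 called genes, 2715 met it (19.5% of all tested). In a list of neutrophil and leukocyte markers chosen after these values were seen, 5 of 13 tested genes were higher in AII cells, and 2, Mpo and Coro1a, were lower (38.5% higher and 15.4% lower, beside 8.21% and 11.3% over all genes). The mean level of the list was 7.09 and 6.64 in AII cells, against 5.66 and 5.70 in J cells. S100a8 and Itgb2 were the other higher members. Of the members not called, 6 were tested, and 4 lay below the filter on low values: Elane, Itgam, Cxcr2 and Lcn2. Of 9 microglia markers, 0 were called in the limma fit at this threshold or at an unadjusted p under 0.05, with mean levels of 6.36 and 5.93 in AII cells and 6.70 and 5.56 in J cells. The part of leukocyte RNA in these 5 genes was not tested.

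The 15 genes that stood lowest in AII cells included a set of transcription factors. For Ebf1 the AII arrays gave 5.51 and 5.25, and the J arrays 11.78 and 12.14. Ebf1, a helix-loop-helix factor of the early B cell factor family, was at a 95.4-fold lower level in AII cells (-6.58, SE 0.40, adjusted p = 1.84e-09), and MP amacrine cells were at 11.88. Ebf3 stood at 5.92 and 5.12 in AII cells and at 10.89 and 11.28 in J cells. Its relative Ebf3 differed by -5.56 (SE 0.40, adjusted p = 1.69e-08), again with a high level of 12.12 in MP cells. The level of Nr4a2 was 6.36 and 5.26 in AII cells, against 12.24 and 11.83 in J cells. Nr4a2, the orphan nuclear receptor NURR1, differed by -6.23 (SE 0.47, adjusted p = 2.76e-08), and PaxCre cells stood at 10.97. Meis2, a TALE homeobox factor, differed by -5.47, Tfap2e, an AP-2 factor, by -5.46, and Mn1, a transcriptional co-regulator, by -5.46. These 3 were also high in PaxCre cells, at 12.96, 10.41 and 10.35.

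The other genes of the lowest 15 code for enzymes, membrane and matrix proteins. Loxl1 levels were 4.17 and 4.27 on the AII arrays, against 8.94 and 10.63 on the J arrays. Loxl1, a lysyl oxidase that cross-links elastin, differed by -5.56 (SE 0.65, adjusted p = 5.91e-06), and no fold is given because its AII level lay close to the lowest possible one. The 2 J arrays differed by more than 1 from each other but both lay above every other subtype's mean, of which MP bipolar cells had the highest, 6.83. AII arrays had 4.82 and 4.73 for Crabp1, and J arrays had 11.67 and 11.47. Crabp1, a cytosolic carrier of retinoic acid, had the largest negative difference of all genes named (-6.80, SE 0.49, adjusted p = 1.57e-08). For Cdh22 the AII arrays gave 5.59 and 5.77, and the J arrays 11.80 and 12.12. Cdh22, a type II cadherin, differed by -6.28 (SE 0.24, adjusted p = 1.64e-11). Kcna1, the potassium channel subunit Kv1.1, differed by -6.03, Spock1, a testican proteoglycan, by -5.66, and Gabrb1, the GABA-A receptor beta1 subunit, by -5.35. Lpl, lipoprotein lipase, differed by -5.22, Tmem176b, a membrane protein gene, by -5.21, and Tmsb10, which encodes an actin-sequestering thymosin, by -5.14.

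**Figure D2:**
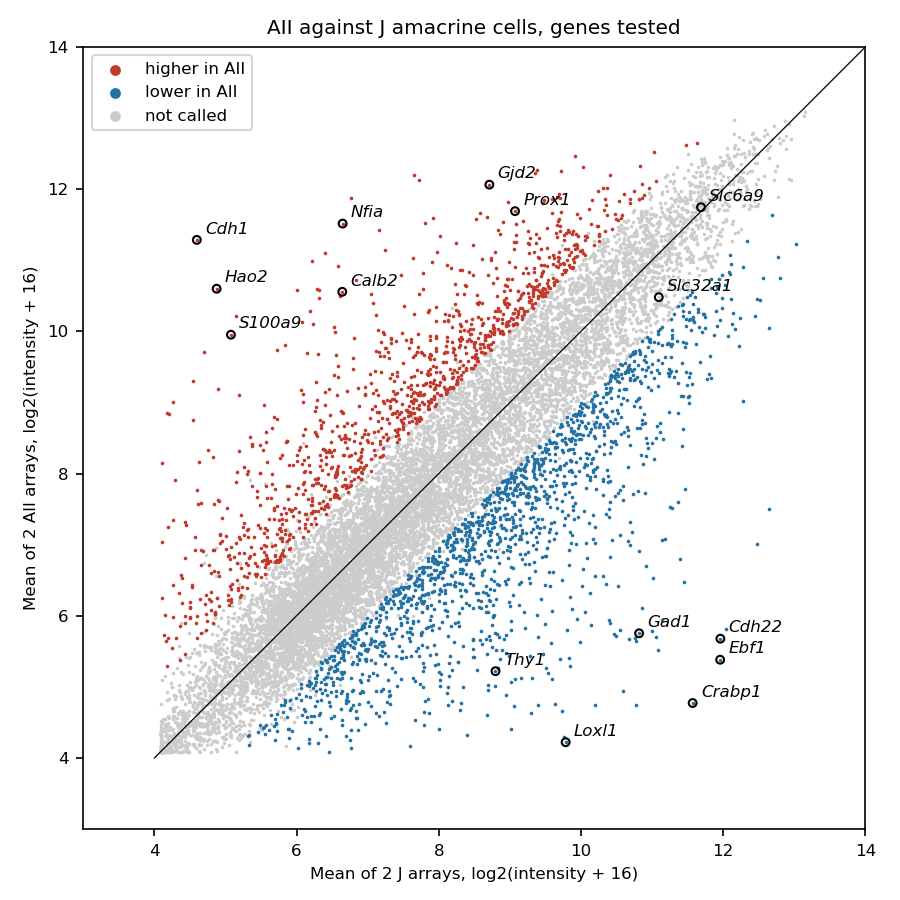
Mean level of the 2 AII arrays (vertical) against the mean of the 2 J arrays (horizontal) for the 13951 genes tested, in log2(intensity + 16). Red points are called higher in AII cells, blue points lower, grey points are not called, the line marks equal levels, and circles mark named genes. Slc6a9 lies on the line, whereas Hao2, Cdh1 and Nfia lie far above it and Ebf1, Crabp1 and Gad1 far below.

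Values in the other 3 amacrine types show which of the groups stood apart. AII minus the mean of starburst, MP and PaxCre cells called 2220 genes (15.9%), and J minus the same mean called 733 (5.25%). These comparisons share arrays with each other and with AII minus J. For Hao2 the AII value was 6.20 and the J value 0.48, and for Nfia they were 4.28 and -0.58. These genes set AII cells apart while the J values were not called. Crabp1, Spock1 and Tmsb10 were low in AII cells relative to the other types by -6.14, -6.28 and -5.0, while the J values of 0.66, -0.62 and 0.14 were not called. For Gad1 the AII value was -4.54 and the J value 0.52, but the mean of the 3 types joined high starburst and PaxCre levels to the 6.20 of MP cells, close to the 5.75 of AII cells. Loxl1 was the opposite case, with -0.62 for AII cells, not called, and 4.95 for J cells. Ebf1, Cdh22 and Nr4a2 were high in J cells against the same mean, by 4.27, 3.91 and 3.93. The AII values were -2.31, -2.37 and -2.30, but AII cells were not alone in their low levels of these genes. The mean Ebf1 level was 5.38 in AII cells, 5.25 in starburst cells, 5.94 in PaxCre cells and 11.88 in MP cells. Cdh22 was at 5.68 in AII cells and 6.01 in starburst cells, and Nr4a2 at 5.81 in AII cells, 6.46 in MP cells and 6.90 in starburst cells. Slc6a9 was raised in both, by 3.86 in AII cells and 3.80 in J cells.

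**Figure D3:**
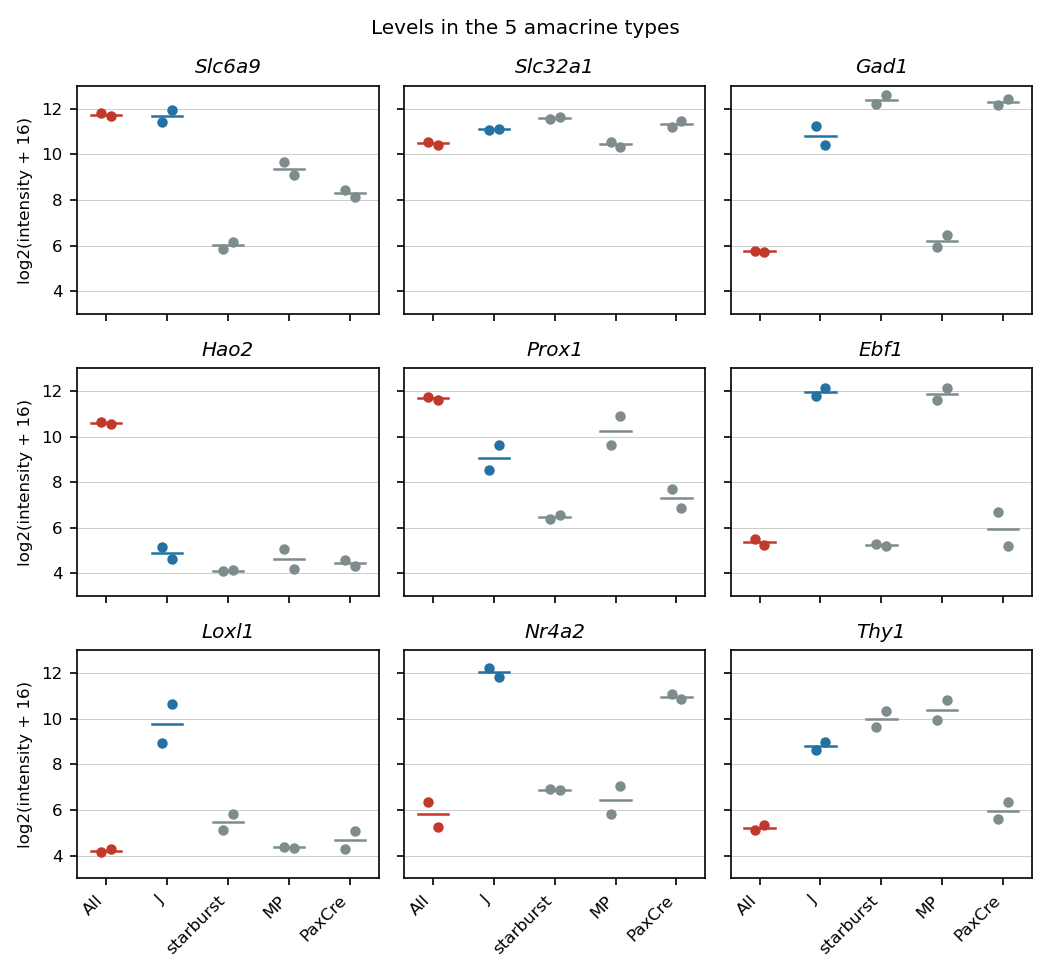
Levels, log2(intensity + 16), of 9 genes in the 5 amacrine types, with a point per array and a bar at the mean of the 2 arrays. Slc6a9 is highest in AII and J cells, Gad1 is high in J, starburst and PaxCre cells, Hao2 is high in AII cells and Loxl1 in J cells, and Ebf1 is high in J and MP cells.

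Among the 10 pairs of amacrine types, AII against J gave the second largest count of called genes, 2726. AII against starburst cells gave 3102 (22.2%), AII against PaxCre cells 2658 (19.1%) and AII against MP cells 1997 (14.3%). J against starburst cells gave 1567 (11.2%), J against MP cells 1434 (10.3%) and J against PaxCre cells 759 (5.44%), the smallest count of the 10. J, starburst and PaxCre cells came from the same strain, and the pairs that hold AII or MP cells also cross strain. Over the 2000 most variable genes, as a description, arrays of AII and J cells correlated at 0.63 to 0.65. AII arrays correlated at 0.57 to 0.61 with PaxCre, 0.484 to 0.517 with starburst and 0.692 to 0.709 with MP arrays. J arrays correlated at 0.788 to 0.852 with PaxCre, 0.584 to 0.616 with starburst and 0.734 to 0.755 with MP arrays. J, starburst and PaxCre arrays also shared high actin 3′ to 5′ ratios, between 28 and 31.9, while AII and MP arrays lay between 3.69 and 14.1, and the part of this in the counts was not tested.

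**Figure D4:**
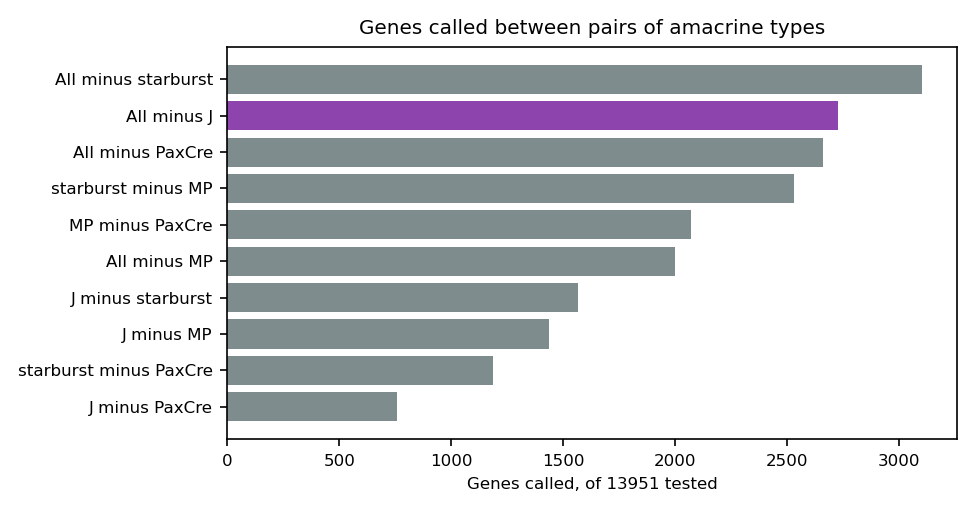
Number of genes called, of 13951 tested, in each of the 10 pairs of amacrine types, with AII minus J in purple. AII minus J (2726) is second to AII minus starburst (3102), and J minus PaxCre (759) is the smallest.

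Called transcription factors, with Nfia, Prox1, Ebf1, Ebf3, Nr4a2 and Meis2 from above among them, were mostly lower in AII cells. Of 72 tested factors of a retinal subtype list, 9 were higher in AII cells (12.5%, beside 8.21% over all genes) and 23 lower (31.9%, beside 11.3%). The higher ones were led by Nfia, Isl1, Neurod2 and Prox1. Isl1 stood at 9.36 and 10.10 in AII cells and at 4.82 and 6.62 in J cells. Isl1, a LIM homeobox factor of starburst, ON bipolar and ganglion cells, differed by 4.01 (SE 0.38, adjusted p = 4.48e-07), but its AII level lay below the 12.81 of starburst cells. Against the mean of starburst, MP and PaxCre cells, the AII value of Isl1 was -0.56, not called, and the J value -4.57. The level of Neurod2 was 11.48 and 11.01 in AII cells, against 7.11 and 9.37 in J cells. Neurod2, a proneural basic helix-loop-helix factor, differed by 3.0 (SE 0.76, adjusted p = 0.00582), and the call was lost without J replicate 1 (difference 1.87). The lower ones were led by Ebf1, Nr4a2, Ebf3 and Meis2. The basic helix-loop-helix gene Neurod6, known from an amacrine type that is neither glycinergic nor GABAergic, was at 4.38 and 4.43 in AII cells and 7.84 and 8.17 in J cells (-3.60, SE 0.18, adjusted p = 2.61e-10). Its level was 10.89 in MP cells. Pan-amacrine genes were mixed, with 2 of 12 higher in AII cells and 3 lower (16.7% higher and 25% lower, beside 8.21% and 11.3% over all genes). Pax6 levels were 10.85 and 11.23 on the AII arrays, against 11.39 and 11.09 on the J arrays, and Pax6, the homeobox factor of all amacrine cells, was not called. Neurod1 was higher by 2.53 (SE 0.44, adjusted p = 0.000282). Elavl4, an RNA-binding protein gene, was higher by 1.07, a call lost without AII replicate 2 (0.98) and without J replicate 2 (0.72). Tfap2c, an AP-2 factor, was lower, with a difference of -4.98 (SE 0.54, adjusted p = 2.43e-06), next to Meis2 and Stx1a.

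Release genes were called about as often as all genes, 19.4% beside 19.5%. Of 31 tested genes of synaptic vesicles and transmitter release, 2 were higher in AII cells and 4 lower. These were 6.45% higher and 12.9% lower, beside 8.21% and 11.3% over all genes. AII arrays had 10.54 and 10.25 for Sv2b, and J arrays had 7.70 and 6.44. Sv2b, a vesicle glycoprotein gene, differed by 3.32 (SE 0.35, adjusted p = 1.37e-06). For Syt7 the AII arrays gave 5.68 and 5.68, and the J arrays 10.92 and 10.43. Syt7, a high-affinity calcium sensor of exocytosis, differed by -5.0 (SE 0.47, adjusted p = 4.05e-07). Cplx4, a complexin of retinal ribbon synapses, was higher by 1.37. Stx1a, a syntaxin of the release machinery, was lower, with a difference of -1.50, as were Rims1, an active zone scaffold gene, with -1.29, and Cplx2, another complexin gene, with -1.12. The call on Cplx4 was lost without AII replicate 2 (1.04) and without J replicate 2 (1.32). Those on Rims1 and Cplx2 were lost without J replicate 1 (-0.99 and -0.95), which left 4 called genes of the list. By the median over probe sets the calls on Rims1 (-0.86) and Stx1a (-0.98) were lost, and with a pseudocount of 64 that on Cplx4 (0.69).

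Neuropeptide precursor genes were called about as often as all genes, 20% beside 19.5%. Of 15 tested, 0 were higher in AII cells and 3 were lower (0% higher and 20% lower, beside 8.21% and 11.3% over all genes). Tac1 stood at 5.52 and 5.76 in AII cells and at 11.37 and 10.18 in J cells. Tac1, the precursor of substance P, differed by -5.13 (SE 0.37, adjusted p = 1.57e-08), and a dimmer probe set gave 0.11. The level of Npy was 5.17 and 5.31 in AII cells, against 8.86 and 8.21 in J cells. Npy differed by -3.30 (SE 0.82, adjusted p = 0.00502), while its level in starburst cells was 12.50. Cartpt levels were 4.88 and 4.64 on the AII arrays, against 8.71 and 5.90 on the J arrays. Cartpt, the precursor of the CART peptide, was high on J replicate 1 in the main, and its call (-2.55) was lost without that array (-1.15) and without AII replicate 2 (-2.43).

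Receptors for fast inhibition were called in both directions. Of 18 tested GABA and glycine receptor genes, 4 were higher in AII cells and 5 lower (22.2% higher and 27.8% lower, beside 8.21% and 11.3% over all genes). AII arrays had 7.91 and 8.28 for Gabrr1, and J arrays had 5.12 and 5.39. Gabrr1, the rho1 subunit of bipolar cell GABA receptors, differed by 2.83 (SE 0.45, adjusted p = 0.000129). Glra3, a glycine receptor alpha subunit, was at 9.58 and 10.30 in AII cells and 6.92 and 8.83 in J cells. Its difference of 2.07 was not called without AII replicate 2 (1.71) or without J replicate 1 (1.11). The GABA-A alpha subunits Gabra5 and Gabra3 were higher by 1.30 and 1.15. The Gabra5 call was lost without AII replicate 1 (1.09) or J replicate 1 (1.14), and the Gabra3 call without AII replicate 2 (0.94) or J replicate 2 (0.79). Gabra3 was also lost with the median over probe sets (0.47) and Gabra5 with a pseudocount of 64 (0.51). The lower GABA-A genes had larger differences. For Gabrb1 the AII arrays gave 5.67 and 5.75, and the J arrays 11.47 and 10.65. Gabrb2 stood at 7.50 and 7.69 in AII cells and at 11.25 and 11.47 in J cells. Both encode beta subunits, and neither overlapped between the groups, as held for 2715 of the 2726 called genes. The level of Gabra2 was 6.84 and 7.14 in AII cells, against 10.71 and 10.68 in J cells. Gabrb1 and Gabrb2 differed by -5.35 (SE 0.27, adjusted p = 3.14e-10) and -3.77 (SE 0.26, adjusted p = 1.09e-08), and the alpha subunits Gabra2 and Gabra4 by -3.71 (SE 0.36, adjusted p = 6.23e-07) and -3.39 (SE 0.44, adjusted p = 1.55e-05). The remaining lower gene was the gamma subunit Gabrg1, with a difference of -2.13.

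Genes of channel-forming glutamate receptors were called in equal numbers each way. Of 14 tested ionotropic genes, 3 were higher in AII cells and 3 lower (21.4% higher and 21.4% lower, beside 8.21% and 11.3% over all genes). Grid1 levels were 7.36 and 7.67 on the AII arrays, against 5.30 and 4.74 on the J arrays. Grid1, a delta receptor subunit gene, differed by 2.50 (SE 0.38, adjusted p = 9.61e-05). AII arrays had 5.06 and 5.06 for Grik1, and J arrays had 8.82 and 9.22. Grik1, the kainate receptor subunit GluK1, differed by -3.96 (SE 0.44, adjusted p = 3.04e-06). The other calls were weaker: Grik3 and Gria4 were higher by 1.38 and 1.04, and the kainate subunit Grik4 and the NMDA receptor subunit Grin3a were lower, with differences of -1.25 and -1.01. Without AII replicate 2 the list held 3 called genes, Grik3 (1.27), Gria4 (1.06) and Grin3a (-0.79) having been lost, and Grin3a and Gria4 also depended on J replicate 2 (-0.61 and 0.38). Without AII replicate 1 Grin3a was also lost (-1.23). With the median over probe sets Grik3 (0.71) was lost and Grin3a turned (0.18), and with a pseudocount of 64 Grik3 (0.56), Grik4 (-0.70) and Grin3a (-0.41) were lost. Of 6 metabotropic receptor genes, 0 were higher in AII cells and 3 were lower (0% higher and 50% lower, beside 8.21% and 11.3% over all genes). They were Grm4 (-2.28, SE 0.30, adjusted p = 1.72e-05) and Grm7 (-1.39, SE 0.31, adjusted p = 0.00267), which belong to group III, and Grm2 (-1.93, SE 0.25, adjusted p = 1.63e-05), which belongs to group II. The Grm7 call was lost with the median over probe sets (-0.85) and the Grm2 call with a pseudocount of 64 (-0.97).

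Neuromodulator receptors included a dopamine receptor gene high in AII cells. AII cells are a known target of retinal dopamine, which acts on their gap junctions. For Drd4 the AII arrays gave 8.14 and 7.69, and the J arrays 4.27 and 4.30. Drd4, a D2-class receptor gene, differed by 3.62 (SE 0.41, adjusted p = 3.26e-06), and no other subtype passed 5.35. A dimmer Drd4 probe set gave 0.26. Whether Drd4 takes part in the action of dopamine on AII gap junctions was not tested. Of 18 tested receptor genes, 3 were higher in AII cells and 4 lower (16.7% higher and 22.2% lower, beside 8.21% and 11.3% over all genes). The nicotinic receptor subunits Chrna4 and Chrna7 were higher by 1.27 and 1.36, and Chrnb2 was lower, with a difference of -1.64. Sstr2 stood at 5.19 and 5.21 in AII cells and at 8.39 and 7.62 in J cells. Sstr2, a somatostatin receptor gene, was lower, with a difference of -2.80 (SE 0.25, adjusted p = 2.12e-07), as were Oprl1, the nociceptin receptor, with -1.82, and Cnr1, the CB1 cannabinoid receptor, with -1.73. The Chrna7 call was lost without AII replicate 2 (1.23) and J replicate 2 (0.61), and the Cnr1 call without AII replicate 1 (-1.60), AII replicate 2 (-1.85) or J replicate 2 (-1.14). Other probe sets of Chrna4 and Chrnb2 gave smaller or opposite values, and with the median over probe sets the differences were 0.02 and 0.10, and that of Chrna7 was 0.88, so that none of the 3 was called.

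Of 38 tested sodium and potassium channel genes, 4 were higher in AII cells and 10 lower (10.5% higher and 26.3% lower, beside 8.21% and 11.3% over all genes). The level of Kcnh1 was 10.52 and 10.43 in AII cells, against 6.04 and 6.59 in J cells. Kcnh1, an ether-a-go-go potassium channel gene, was 17.9-fold higher (4.16, SE 0.23, adjusted p = 1e-09), the highest level of the 13 subtypes. Kcnn2 levels were 8.34 and 8.93 on the AII arrays, against 6.22 and 6.01 on the J arrays. Kcnn2, a small-conductance calcium-activated potassium channel gene, differed by 2.52 (SE 0.27, adjusted p = 1.95e-06). Kcnma1, the large-conductance channel BK, was higher by 2.27, a call lost without AII replicate 2 (2.16) or J replicate 2 (1.71). AII arrays had 4.89 and 4.60 for Kcna1, and J arrays had 11.04 and 10.51. Kcna1 differed by -6.03, as given above, and 2 of its 3 other probe sets differed by -3.07 and -4.69. For Kcnd3 the AII arrays gave 7.67 and 7.89, and the J arrays 11.32 and 11.61. Kcnd3, a gene for an A-type channel, was lower, with a difference of -3.68 (SE 0.22, adjusted p = 1.75e-09), but of -0.72, not called, with the median over its probe sets. Kcns2, a silent Kv subunit, was lower, with a difference of -2.81, and so was Kcnip4, a Kv4-interacting protein gene, with -1.73. The Kcnip4 call was lost without AII replicate 2 (-1.69) or J replicate 1 (-1.43), and with the median over probe sets (-0.41).

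Of 21 tested calcium channel genes, 4 were higher in AII cells and 9 lower (19% higher and 42.9% lower, beside 8.21% and 11.3% over all genes). Cacng5 stood at 11.27 and 11.03 in AII cells and at 6.41 and 8.07 in J cells. Cacng5, a gene for a transmembrane AMPA receptor regulator, was higher by 3.91 (SE 0.36, adjusted p = 3.15e-07), and a dim second probe set gave -0.50. The T-type channel gene Cacna1h, Cacng3 and the beta subunit Cacnb4 were higher by 1.61, 1.60 and 1.22, and a dimmer Cacna1h probe set gave -0.11. The Cacng3 call was lost without AII replicate 2 (1.29). The level of Cacna2d3 was 6.57 and 6.06 in AII cells, against 10.07 and 10.19 in J cells. Cacna2d3, an alpha2delta subunit gene, was lower, with a difference of -3.82 (SE 0.35, adjusted p = 2.9e-07), and so was its relative Cacna2d2, with -2.76. The P/Q-type channel gene Cacna1a was lower, with a difference of -1.97, and so was the R-type channel gene Cacna1e, with -2.48, a call lost without J replicate 1 (-1.33). With the median over probe sets the calls on Cacna1a (-0.41), Cacna1h (0.75) and Cacnb4 (0.96) were lost.

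Gap junction and calcium-binding genes held some of the AII markers again. Of 5 connexin and pannexin genes tested, Gjd2 and Gjc1 were higher in AII cells and Panx1 was lower (40% higher and 20% lower, beside 8.21% and 11.3% over all genes). Gjc1 levels were 10.97 and 10.94 on the AII arrays, against 9.15 and 10.25 on the J arrays. Gjc1, the gene for connexin 45, differed by 1.25 (SE 0.29, adjusted p = 0.00322), and Panx1 stood at 6.63 and 6.60 in AII cells and at 7.93 and 7.59 in J cells. The Panx1 difference was -1.15 (SE 0.27, adjusted p = 0.00356). A dimmer Gjc1 probe set gave -0.44. Without J replicate 1 neither was called, with differences of 0.71 and -0.98, and Gjd2 alone remained. Of 17 calcium-binding protein genes, 4 were higher in AII cells and 4 lower (23.5% higher and 23.5% lower, beside 8.21% and 11.3% over all genes). For Ncald the AII arrays gave 10.28 and 10.49, and the J arrays 8.11 and 8.35. Ncald, encoding neurocalcin delta, followed Calb2 with 2.15 (SE 0.30, adjusted p = 3.47e-05). Calb1, calbindin, was higher by 2.26, a call lost without J replicate 2 (1.68) and without either AII array (2.14 without replicate 1 and 2.37 without replicate 2). Hpcal4 was higher by 1.81, a call lost without J replicate 2 (1.18). Necab2 stood at 6.89 and 6.76 in AII cells and at 9.71 and 9.21 in J cells. Necab2, a neuronal EF-hand protein gene, was lower, with a difference of -2.63 (SE 0.22, adjusted p = 1.11e-07), as were Hpca, encoding hippocalcin, with -2.50, and Cabp1, encoding a calmodulin-like protein, with -2.17. Vsnl1, encoding visinin-like protein 1, was lower, with a difference of -1.04, a call lost without AII replicate 2 (-0.97). Taking the median over probe sets, the calls on Gjc1 (0.41), Calb1 (0.66) and Vsnl1 (-0.83) were lost, and with a pseudocount of 64 those on Panx1 (-0.86), Calb1 and Vsnl1 (-0.99).

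**Figure D5:**
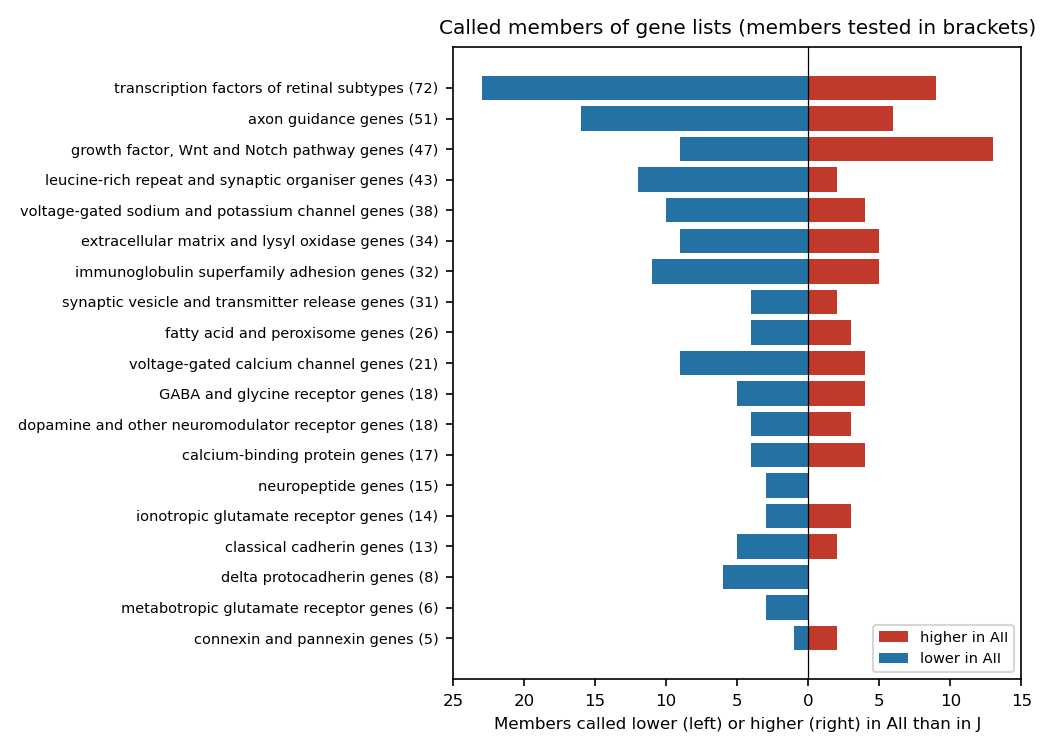
Number of members called in 19 gene lists, with members tested in brackets. Red bars to the right count members higher in AII cells and blue bars to the left members lower. The growth factor list has more higher (13) than lower (9) members, and 6 of 8 delta protocadherins are lower with 0 higher.

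Delta protocadherins, which mediate weak homophilic adhesion, were mostly lower in AII cells. Of 8 tested, 0 were higher and 6 lower (0% higher and 75% lower, beside 8.21% and 11.3% over all genes), and the median difference was -3.47. The level of Pcdh10 was 5.75 and 5.75 in AII cells, against 10.44 and 10.48 in J cells. Pcdh18 levels were 6.15 and 5.27 on the AII arrays, against 10.89 and 10.09 on the J arrays. The groups overlapped for neither gene, as held for 2715 of the 2726 called genes. AII arrays had 6.27 and 6.85 for Pcdh8, and J arrays had 9.44 and 10.95. The differences were -4.71 (SE 0.29, adjusted p = 2.36e-09) for Pcdh10, -4.78 (SE 0.33, adjusted p = 8.15e-09) for Pcdh18 and -3.63 (SE 0.34, adjusted p = 3.59e-07) for Pcdh8, and the groups did not overlap for Pcdh8 either. Pcdh7 was lower, with a difference of -3.57, although a dimmer probe set gave 0.06 and the median over probe sets -0.69, not called. Pcdh17 and Pcdh19 were the members not called. Of 13 classical cadherin genes, 2 were higher in AII cells and 5 lower (15.4% higher and 38.5% lower, beside 8.21% and 11.3% over all genes). Beside Cdh1, Cdh6 was higher by 2.01 (SE 0.36, adjusted p = 0.000397). Beside Cdh22, Cdh11 was lower, with a difference of -2.42 (SE 0.38, adjusted p = 0.000131) and so was Cdh13, with -2.12 (SE 0.22, adjusted p = 1.12e-06). Cdh8 was lower, with a difference of -2.36, a call lost without J replicate 2 (-1.37). The fifth lower cadherin was Cdh10, with a difference of -1.32 that was called.

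Immunoglobulin superfamily adhesion genes gave 5 higher and 11 lower of 32 tested (15.6% higher and 34.4% lower, beside 8.21% and 11.3% over all genes). For Cntn4 the AII arrays gave 8.68 and 8.50, and the J arrays 5.07 and 6.06. Cntn4, a contactin gene, differed by 3.02 (SE 0.37, adjusted p = 8.4e-06). Nfasc, neurofascin, was higher by 2.40 (SE 0.33, adjusted p = 3.37e-05) and Kirrel, a nephrin-like adhesion gene, by 1.85 (SE 0.27, adjusted p = 4.72e-05), although the next probe set of Kirrel gave -0.01 and the median over probe sets 0.93, not called. Nrcam stood at 6.42 and 6.99 in AII cells and at 10.74 and 11.08 in J cells. Nrcam, an L1 family gene, was 18.4-fold lower (-4.20, SE 0.20, adjusted p = 1.91e-10). Kirrel3 was lower, with a difference of -4.06 (SE 0.42, adjusted p = 1.22e-06) and so was Alcam, with -3.84 (SE 0.37, adjusted p = 6.23e-07). The level of Dscam was 7.43 and 7.42 in AII cells, against 9.96 and 10.75 in J cells. Dscam, which spaces the cell bodies and neurites of like cells in mouse retina, was lower, with a difference of -2.92 (SE 0.28, adjusted p = 4.1e-07).

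Leucine-rich repeat and synaptic organiser genes gave 2 higher and 12 lower of 43 tested (4.65% higher and 27.9% lower, beside 8.21% and 11.3% over all genes). Lrrtm1 levels were 5.0 and 4.52 on the AII arrays, against 9.59 and 9.67 on the J arrays. Lrrtm1, a postsynaptic organiser that binds neurexins, was lower, with a difference of -4.87 (SE 0.49, adjusted p = 9.65e-07). AII arrays had 6.13 and 6.07 for Tenm1, and J arrays had 9.98 and 9.77. Tenm1, a teneurin gene, was lower, with a difference of -3.77 (SE 0.38, adjusted p = 8.18e-07), and so was its relative Tenm4, with -2.80 (SE 0.33, adjusted p = 5.2e-06). For Cbln1 the AII arrays gave 5.78 and 5.62, and the J arrays 8.58 and 9.11. Cbln1, a secreted partner of neurexins, was lower, with a difference of -3.15 (SE 0.23, adjusted p = 2.37e-08). The higher members were Lrrc4c (1.32) and Lrrc4 (1.13), genes of the netrin-G ligand family. Their calls were lost without J replicate 1 (1.08 and 0.57), and that of Lrrc4 also without AII replicate 1 (0.95). A second probe set of Lrrc4c gave -0.64. Neither was called with the median over probe sets (-0.38 and 0.77), nor was Lrrc4 with a pseudocount of 64 (0.84).

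Axon guidance genes gave 6 higher and 16 lower of 51 tested (11.8% higher and 31.4% lower, beside 8.21% and 11.3% over all genes). Epha7 stood at 11.35 and 11.33 in AII cells and at 7.47 and 8.57 in J cells. Epha7, an ephrin receptor gene, was higher by 3.32 (SE 0.36, adjusted p = 2.07e-06), and its relative Epha4 by 2.42 (SE 0.49, adjusted p = 0.00104). The level of Sema3d was 7.79 and 8.53 in AII cells, against 4.44 and 4.82 in J cells. The secreted semaphorin genes Sema3d and Sema3a were higher by 3.53 (SE 0.28, adjusted p = 4.73e-08) and 2.73 (SE 0.36, adjusted p = 2.22e-05), and a dim second probe set of Sema3d gave -0.44. Unc5c levels were 5.79 and 5.93 on the AII arrays, against 10.50 and 9.78 on the J arrays. Unc5c, a netrin receptor gene, was lower, with a difference of -4.28 (SE 0.38, adjusted p = 2.53e-07). AII arrays had 5.85 and 6.25 for Robo1, and J arrays had 9.52 and 10.59. The Slit receptor genes Robo1 and Robo2 were lower, with differences of -4.0 (SE 0.40, adjusted p = 8.97e-07) and -3.21 (SE 0.54, adjusted p = 0.000215), but by the median over its probe sets Robo1 was not called (-0.72). Efnb1, an ephrin-B ligand gene, was lower, with a difference of -3.36 (SE 0.39, adjusted p = 5e-06).

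Matrix genes gave 5 higher and 9 lower of 34 tested (14.7% higher and 26.5% lower, beside 8.21% and 11.3% over all genes). Loxl1 and Spock1 led the lower members. For Reln the AII arrays gave 7.69 and 7.38, and the J arrays 11.29 and 11.22. Reln, the secreted ligand of the pathway in which DAB1 acts, was lower, with a difference of -3.72 (SE 0.20, adjusted p = 9.12e-10), while Dab1 was higher. A dim second probe set of Reln gave 0.31. Tnc stood at 5.14 and 4.90 in AII cells and at 9.42 and 7.97 in J cells. Tnc, tenascin C, was lower, with a difference of -3.67 (SE 0.39, adjusted p = 1.59e-06). The higher members included Lama1, a laminin chain gene (1.77, SE 0.17, adjusted p = 5.75e-07), Spock3, a testican gene (1.77, SE 0.28, adjusted p = 0.000148), and the basement membrane collagens Col4a1 (3.01) and Col4a2 (2.83). The Col4a1 call was lost without AII replicate 2 (2.94) or J replicate 2 (2.43) and with the median over probe sets (1.67), and the Col4a2 call without J replicate 2 (1.58). The remaining higher member was Tnr, tenascin R, with a difference of 1.29.

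Growth factor, Wnt and Notch genes were the list with more higher than lower members among those over 40 genes, 13 against 9 of 47 tested (27.7% higher and 19.1% lower, beside 8.21% and 11.3% over all genes). The level of Gfra1 was 11.51 and 11.55 in AII cells, against 7.52 and 8.09 in J cells. Gfra1, the GDNF co-receptor, was higher by 3.73 (SE 0.31, adjusted p = 9.16e-08), and its relative Gfra2 by 3.15 (SE 0.47, adjusted p = 7.85e-05), although the median over the 5 probe sets of Gfra2 gave -0.29. Ntrk3 levels were 10.34 and 10.11 on the AII arrays, against 7.36 and 6.87 on the J arrays. Ntrk3, the neurotrophin 3 receptor TrkC, was higher by 3.11 (SE 0.27, adjusted p = 1.38e-07). Jag1, a Notch ligand gene, was higher by 3.02, but by 0.25 with the median over its probe sets. AII arrays had 4.31 and 5.05 for Igfbp5, and J arrays had 7.70 and 8.90. Igfbp5, an IGF-binding protein gene, was lower, with a difference of -3.62 (SE 0.51, adjusted p = 3.89e-05) on its brightest probe set, and another probe set gave 0.49. The genes for the intracellular FGF homologous factors Fgf12 and Fgf13 were lower, with differences of -2.89 (SE 0.27, adjusted p = 4.06e-07) and -2.92 (SE 0.29, adjusted p = 9.75e-07), and a second probe set of Fgf13 gave 0.08. Fzd5, a Wnt receptor gene, was lower, with a difference of -2.82 (SE 0.42, adjusted p = 7.15e-05).

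Genes of fatty acid metabolism and peroxisomes were called in both directions. Of 26 fatty acid and peroxisome genes tested, 3 were higher in AII cells, Hao2 among them, and 4 lower. This was a share of 26.9% beside 19.5% over all genes, with a median difference of 0.09. For Fabp5 the AII arrays gave 10.96 and 10.54, and the J arrays 12.82 and 12.79. Fabp5, a fatty acid binding protein gene, was lower, with a difference of -2.06 (SE 0.19, adjusted p = 4.11e-07). Elovl4, which elongates very long chain fatty acids, was higher by 1.31 (SE 0.27, adjusted p = 0.00135). Abcd2, a peroxisomal transporter gene, was higher by 1.17, a call lost without AII replicate 1 (0.82), J replicate 1 (1.05) or J replicate 2 (1.29). Acsl4 and Acaa1a, enzymes of fatty acid activation and peroxisomal oxidation, were lower, with differences of -1.83 and -1.37, and so was Pex11a, a peroxisome division factor, with -1.71. By the median over probe sets Acsl4 (-0.25) and Abcd2 (0.45) were not called. Pex11a was not called with quantile normalization over the 14 amacrine and bipolar arrays (-0.32). There its other probe set was the brightest, which gave -0.314 in the main normalization. Abcd2 was not called with a pseudocount of 64 (0.83).

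Some markers of other retinal cells were called too. Of 16 ganglion cell markers tested, 8 were lower in AII cells, and Isl1 was the 1 member that was higher (6.25% higher and 50% lower, beside 8.21% and 11.3% over all genes). Thy1 stood at 5.12 and 5.33 in AII cells and at 8.62 and 8.97 in J cells. Thy1, a surface protein of ganglion cells and some amacrine cells, differed by -3.58 (SE 0.33, adjusted p = 3.1e-07). Its mean was 9.98 in starburst, 10.38 in MP and 5.97 in PaxCre amacrine cells, and 11.77 in W3 ganglion cells. The level of Stmn2 was 6.41 and 5.46 in AII cells, against 10.61 and 10.20 in J cells. Nefm levels were 7.38 and 6.71 on the AII arrays, against 10.52 and 10.81 on the J arrays. Stmn2, a microtubule regulator of growing axons, and Nefm, a neurofilament gene, differed by -4.47 (SE 0.33, adjusted p = 1.93e-08) and -3.62 (SE 0.69, adjusted p = 0.000708). The mean level of the list was 6.15 and 6.05 in AII cells, against 7.0 and 7.49 in J cells. Over both arrays it was 7.2 in J, 7.2 in starburst, 7.1 in PaxCre and 7.5 in MP cells. In the ganglion cell subtypes it was 10.1 to 10.5. The part of ganglion cell RNA in these levels was not tested. Also lower were Ebf3, Gap43 (-1.44), Atoh7 (-1.46), Nefl (-1.77) and Pou4f1 (-1.65). The last of these was high on J replicate 2 only, at 8.63 beside 5.83 on J replicate 1 and 5.34 and 5.83 in AII cells. Its call was lost without J replicate 2 (-0.25) or either AII array (-1.40 and -1.89), and the Nefl call without any of the 4 arrays (-2.19 to -1.36) and with the median over probe sets (-0.89). With a pseudocount of 64 Gap43 (-0.95), Atoh7 (-0.82) and Pou4f1 (-1.16) were not called. Slc17a6, Isl2, Nefh, Nrn1, Rbpms and Sncg were not called, nor was Jam2 (6.76 and 7.53 in AII cells, 6.13 and 6.27 in J cells). Jam2 encodes the adhesion protein JAM-B, the gene of which is known to mark J ganglion cells, and it reached 11.07 in those cells.

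Of 10 Muller glia markers tested, 0 were higher in AII cells and 6 were lower (0% higher and 60% lower, beside 8.21% and 11.3% over all genes). AII arrays had 8.78 and 7.96 for Glul, and J arrays had 11.04 and 10.86. Glul, glutamine synthetase, differed by -2.58 (SE 0.31, adjusted p = 8.44e-06), and Slc1a3, a glial glutamate transporter gene, by -2.85 (SE 0.31, adjusted p = 2.15e-06). Dbi, the acyl-CoA binding protein gene, was lower, with a difference of -3.09 (SE 0.45, adjusted p = 5.76e-05) and so was Vim, vimentin, with -2.43 (SE 0.51, adjusted p = 0.00144). The mean level of the list was 6.55 and 6.06 in AII cells, against 7.82 and 7.63 in J cells, and the part of glial RNA in it was not tested. The glial genes Aqp4, Sox9, Rlbp1 and Apoe were not called, and Aqp4 lay between 4.35 and 5.28 on all 4 arrays. Glul was also above 10.8 in every subtype apart from AII cells.

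Of 10 rod markers tested, 3 were higher in AII cells and 0 were lower (30% higher and 0% lower, beside 8.21% and 11.3% over all genes). They were Pde6b and Cnga1, genes of the phototransduction cascade, and Crx, a photoreceptor homeobox factor, with differences of 1.90, 1.75 and 1.47, and a dimmer Crx probe set gave -0.13 (median over probe sets 0.67, not called). Without J replicate 2 none of the 3 was called (1.47, 0.83 and 1.43). Without AII replicate 1 Cnga1 alone was called, the values for Pde6b and Crx being 1.98 and 1.27. Without AII replicate 2 Crx alone was called, the values for Pde6b and Cnga1 being 1.83 and 1.31. Without J replicate 1 Crx was not called (1.51). The mean level of the rod list was 7.75 and 7.81 in AII cells and 7.46 and 6.72 in J cells.

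In the remaining small marker lists, the share called was 30.8% of bipolar, 30% of starburst, 40% of horizontal cell, 16.7% of cone, 20% of progenitor and 50% of vGluT3 and Neurod6-positive amacrine markers, beside 19.5% over all genes. Of 13 bipolar markers, Isl1, Gabrr1 and Vsx1 were higher in AII cells and Grik1 was lower. The Vsx1 call (1.42) was lost without J replicate 1 (0.95), with the median over probe sets (0.58) and with a pseudocount of 64 (0.96), and a dimmer probe set gave -0.27. Of 5 horizontal cell markers, Onecut1 (1.90, SE 0.23, adjusted p = 7.23e-06) and Calb1 were higher, and of 6 cone markers Gnb3 (1.04) was, a call lost without AII replicate 2 (0.93) and with a pseudocount of 64 (0.64). Of 10 starburst markers, Isl1 and Calb1 were higher and Megf10 (-2.17, SE 0.55, adjusted p = 0.00565), a receptor of cell spacing, was lower. Of 4 markers of vGluT3 and Neurod6-positive amacrine cells, Neurod2 was higher and Neurod6 lower. Of 10 progenitor markers, Sfrp2 was higher (1.08) and Hes5 lower (-2.92). Without AII replicate 2 neither was called (1.04 and -1.92), and the Sfrp2 call was also lost without AII replicate 1 (1.12) or J replicate 2 (0.48) and with a pseudocount of 64 (0.55). Of 12 immediate early and stress genes, 16.7% were called, beside 19.5% over all genes: Dusp1 (1.45, SE 0.30, adjusted p = 0.00126) and Hspa1b (1.52) were higher in AII cells, and the Hspa1b call was lost without AII replicate 2 (1.49) or J replicate 2 (1.42). In the limma fit 0 of 4 vascular and astrocyte markers were called, with 1, Tek, at an unadjusted p under 0.05, and neither was the 1 erythrocyte marker tested, Hba-a1, with a difference of 0.72 (unadjusted p = 0.00463, adjusted p = 0.0193).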

How the data were processed

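Total RNA of sorted cells was measured on Affymetrix arrays. The deposited values are intensities on a linear scale with a floor of 1, made by the authors with software that is not given in the sources used here. Of 45037 probe sets besides 64 controls, 34945 carried 1 gene symbol and 9160 none, and the brightest represented each of 18193 genes.

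Values were log2(intensity + 16), quantile normalized over 26 arrays. Genes above the overall median on at least 2 arrays, 13951 in all, entered limma 3.58.1 in R 4.3.3, with a mean for each of 13 subtypes, 13 residual degrees of freedom, a two-sided test and Benjamini-Hochberg adjustment. Groups came from the sample titles. Replicates are 2 arrays a group, which limits the precision.

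Named were the 4 markers given for the groups, the 15 highest and 15 lowest called genes without overlap, up to 4 called members a list in each direction, all members of the AII, glycinergic, GABAergic and ganglion lists, Thy1, Jam2 and Pax6. The comparison, members and 38 lists were chosen with earlier results of these data known, the leukocyte list after its values were seen. Some members named in small counts fall outside the rule and were chosen after their values were seen. Sequences are RefSeq's. The 19 alternatives covered normalization, pseudocount, filter, probe sets, fit, strain and left-out arrays. The limma fit was tested on simulated data.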

Additional observations from a re-analysis of the deposited data

How the results depend on the processing

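The number of genes called, 2726 of 13951, lay between 1978 (pseudocount 64) and 3020 (pseudocount 4) under alternatives that kept all arrays, and between 1943 and 2916 without 1 array at a time. The lowest of the latter left out AII replicate 2. Taking the median over probe sets gave 2002, and fitting the 4 arrays alone gave 2023. No gene separated the 8 arrays of part Swiss or CD1 strains from the 18 C57BL/6 arrays, so the alternative without such genes left out none and says nothing about strain. The deviations of AII replicate 1 and J replicate 1 from their group means correlated at 0.054 over the 2000 most variable genes. This compares 1 pair of groups and cannot show whether the numbers mark a batch. The numbers were used to name the arrays only in the main fit. With the replicate block 2755 genes were called.

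Over the named genes and alternatives, 3111 values were kept, 185 lost their call by adjusted p or size, 4 gained one and 34 turned direction. The other 95 moved, all on the next brightest probe set, where no test was made. There a value was kept if it differed from the main one by at most the larger replicate standard deviation. Elsewhere it was kept if direction and call stayed the same. Of 128 named and called genes with a next probe set, 21 were kept on it and 18 turned. The values that turned are given here, and their causes were not tested. Slc6a9 was -0.051 on the columns as deposited, -0.071 after a median shift, and -0.199 to 0.314 without 1 array. Without 1 array Isl2 lay between -0.417 and 0.157, Nefh between -0.842 and 0.223, Nrn1 between -0.165 and 0.002, Slc17a6 between -0.587 and 1.491, and Sncg between -0.849 and 0.262. Igfbp5 was 0.492 with quantile normalization over 14 arrays. There its other probe set was the brightest, which gave 0.49 in the main normalization. With the median over probe sets Chrnb2 was 0.099, Gad2 -0.074, Gfra2 -0.289, Grin3a 0.183 and Lrrc4c -0.375. On the next brightest probe set the values were -0.114 for Cacna1h, -0.496 for Cacng5, 0.099 for Chrnb2, -0.128 for Crx, 0.081 for Fgf13, -0.213 for Gabra3, -0.85 for Gad2, -0.442 for Gjc1, 0.273 for Grin3a, 0.49 for Igfbp5, -0.048 for Jag1, -0.005 for Kirrel, -0.641 for Lrrc4c, 0.062 for Pcdh7, 0.305 for Reln, -0.44 for Sema3d, -0.898 for Slc24a2, 0.109 for Tac1 and -0.265 for Vsx1.

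Of the named genes, calls were also lost as follows. On the columns as deposited and after a median shift they were Elavl4, Gabra3, Gria4, Grin3a, Nptn and Sfrp2. With quantile normalization over 14 arrays they were Calb1, Cnga1, Gabra5, Nefl, Pex11a, Pou4f1 and Sfrp2. The brightest probe set was also chosen anew on those arrays. In the fit of the 4 arrays alone 21 calls were lost, in that of the 10 amacrine arrays 11 and with array weights 9, with the same differences. With a pseudocount of 64, 17 calls were lost and another 19 differences were over 1.5 times smaller. With the median over probe sets 28 calls were lost and 4 turned.

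With 2 arrays a group, the spread is borrowed from all 13 subtypes, and no detection call accompanies the intensities, so dim genes have no measured bound.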
